A study of Mus musculus with 6 samples.

Results

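Mast cell genes were followed in RNA of left ventricular infarct scars of mice. The members were 7 genes chosen by name: the receptor genes Kit and Ms4a2, the protease genes Cpa3, Mcpt4, Cma1 and Tpsb2, and the histamine-forming enzyme gene Hdc. Of these, 6 were found among the 14798 genes of the deposited table and all 6 were tested. Ms4a2, the beta chain of the high-affinity IgE receptor, has no row there and was not analysed here.

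The left anterior descending coronary artery was ligated in mice 10 weeks old, and scar tissue was taken 6 weeks later, when the labels give ages of 14 to 16 weeks. Control scars (n = 3 libraries) came from Sox9 fl/fl mice without Cre, and deletion scars (n = 3 libraries) from mice labelled Sox9 fl/perCre, in which the series description places loss of Sox9 in fibroblasts alone. Scars of both groups had therefore been infarcted, and no uninjured heart was compared. The labels do not spell out the Cre driver or say whether both Sox9 alleles are floxed in deletion mice. Cre itself was carried by the deletion group alone. Separate animals are not stated, so a p-value here covers the spread of these libraries, which may be technical in part.

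Mast cells are long-lived tissue cells of the haematopoietic lineage that store mediators in granules. KIT, the receptor for stem cell factor, keeps them alive, and crosslinking of IgE on its receptor releases the granules. In mouse connective tissue their granules hold chymases, tryptases, carboxypeptidase A and histamine, bound to heparin. In the heart they lie mainly around vessels and in connective tissue, and chymase is known for cleaving angiotensin I to angiotensin II.

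Total counts ran from 18538171 to 55523974 per library. All counts of replicates 2 and 3 of both groups were even numbers, against 49.9% and 49.3% of genes in replicate 1 of the control and deletion group, so the counts of replicates 2 and 3 may be doubled. This split is called the batch, although the labels name none. Control replicate 3 was the 1 library with a female profile (Xist at 812 CPM against at most 7.61 CPM elsewhere). It therefore came from another animal than controls 1 and 2. Sex was thus unbalanced between the genotypes, and its part in the members' values was not tested. Deletion replicate 1 stood apart on the first principal component, which held 57.2% of the variance. Sox9, the targeted gene, was at 71.1, 75.8 and 67.7 CPM in controls 1 to 3 and at 42.1, 51.7 and 55.8 CPM in deletion scars 1 to 3. Every deletion library was below every control in Sox9, as in 8.6% of all tested genes. Its log2 fold change was -0.52 ± 0.15 (SE; edgeR adjusted p = 0.564), so the targeted gene itself did not pass. CPM is the usual unit of counts scaled to library size, here after TMM scaling, which corrects library sizes for differences in composition. In such bulk tissue, fewer mast cells and less RNA per mast cell cannot be told apart.

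Kit was the member with the most counts, and the receptor is also carried by melanocytes and blood progenitors. Its level was 5.23, 10.9 and 16.3 CPM in controls 1 to 3 and 8.18, 5.73 and 8.61 CPM in deletion scars 1 to 3. Control replicate 3 was the highest and control replicate 1 the lowest of all 6 libraries, so the groups overlapped. Means of 10.8 ± 5.55 against 7.51 ± 1.56 CPM (SD, n = 3 each) gave a log2 fold change of -0.54 ± 0.41 (SE; edgeR adjusted p = 0.649). The 2 batches had opposite signs: deletion replicate 1 lay 0.65 above control replicate 1 on the log2 scale, whereas the means of replicates 2 and 3 differed by -0.93. With replicates 2 and 3 alone, edgeR gave -0.94 ± 0.30 (SE), with an unadjusted edgeR p of 0.0256 and an adjusted one of 0.254.

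Of the 4 protease genes, Cpa3, Cma1 and Tpsb2 were near the lower limit of what these libraries could measure, with 4 to 12 counts in control replicate 3 and deletion replicates 1 and 2. Mcpt4 held 13 to 150 counts per library. Carboxypeptidase A3 (Cpa3), a granule enzyme that trims residues from peptide ends, was at 2.84, 1.24 and 0.166 CPM in controls 1 to 3. In deletion scars 1 to 3 it was at 0.369, 0.0874 and 1.05 CPM. Control replicate 3 and deletion replicates 1 and 2 were low, and deletion replicate 3 lay near control replicate 2. The lowest value rested on 4 counts in deletion replicate 2, with a 95% counting interval of 0.0106 to 0.316 CPM after the even counts were divided by 2. Such exact Poisson intervals cover counting error only.

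Cma1 encodes a chymase stored with carboxypeptidase A in the granule. It was at 2.50, 1.79 and 0.166 CPM in controls 1 to 3 and at 0.633, 0.175 and 1.73 CPM in deletion scars 1 to 3. Tpsb2, a tryptase that is active as a tetramer, was at 1.89, 1.43 and 0.132 CPM in controls 1 to 3 and at 0.422, 0.131 and 1.21 CPM in deletion scars 1 to 3. Both genes had the order of high and low libraries seen for Cpa3: control replicate 3 and deletion replicate 2 were at the bottom, deletion replicate 1 between, and deletion replicate 3 close to control replicate 2. From the lowest to the highest library, Cpa3 spanned 32.5-fold, Cma1 15.1-fold and Tpsb2 14.4-fold. Within the controls alone the spans were 17.1-fold, 15.1-fold and 14.3-fold, and within the deletion scars 12.0-fold, 9.90-fold and 9.21-fold.

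Mcpt4, the other chymase gene of the set and the mouse enzyme often likened in substrate use to human chymase, differed from them most in 1 library. Its level was 2.28, 2.34 and 2.48 CPM in controls 1 to 3 and 0.686, 0.743 and 2.66 CPM in deletion scars 1 to 3. All 3 controls lay close together, deletion replicates 1 and 2 were below them, and deletion replicate 3 was level with the controls. Control replicate 3, which held 10 counts each of Cma1 and Cpa3 and 8 of Tpsb2, held 150 of Mcpt4. The 95% counting interval there was 1.95 to 3.11 CPM for Mcpt4 and 0.0538 to 0.386 CPM for Cma1 after halving.

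**Figure D1:**
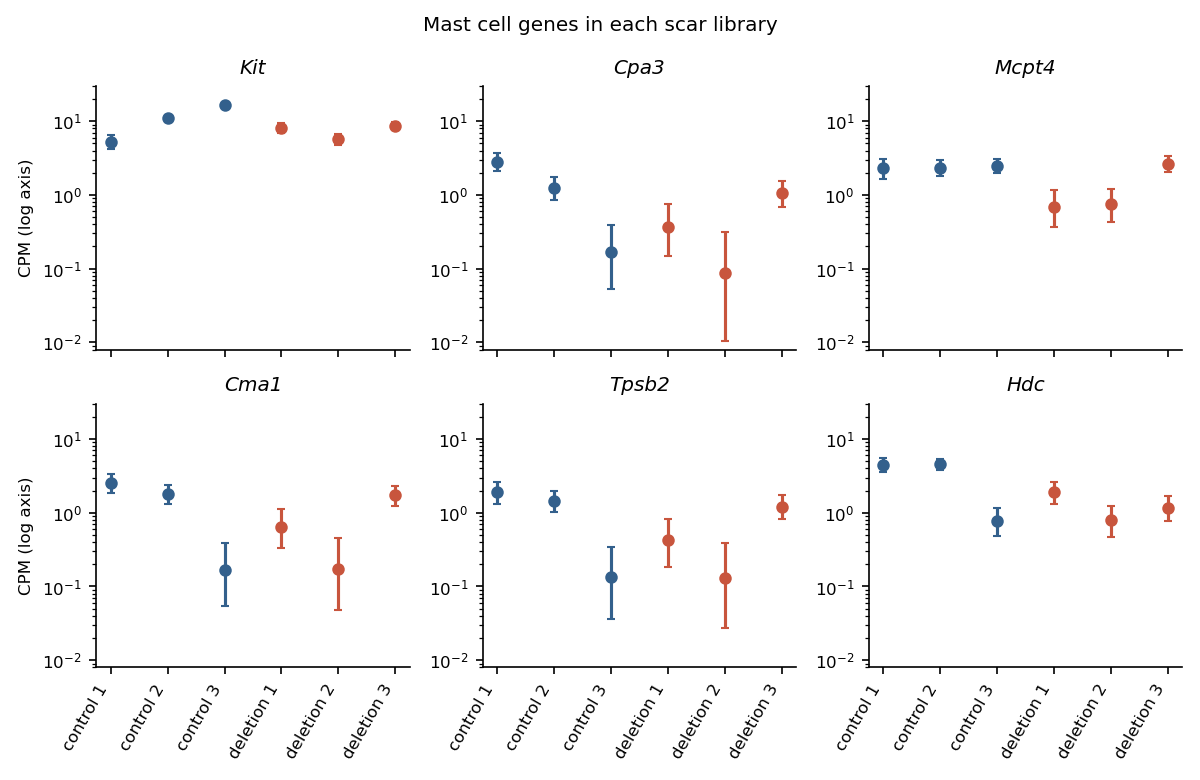
Level of each of 6 mast cell genes in each library, in TMM-scaled CPM on a log axis; blue points are controls and red points deletion scars, and bars are 95% exact Poisson intervals with the counts of replicates 2 and 3 divided by 2. Cpa3, Cma1 and Tpsb2 are low in control 3 and deletion 2, Mcpt4 is at 2.48 CPM in control 3, and in each gene the groups overlap.

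Hdc encodes histidine decarboxylase, the enzyme that forms histamine, and is also active in some myeloid cells. Its level was 4.51, 4.53 and 0.762 CPM in controls 1 to 3 and 1.90, 0.787 and 1.17 CPM in deletion scars 1 to 3. Control replicates 1 and 2 were above every deletion library, and control replicate 3 was as low as deletion replicate 2. Unlike the proteases, Hdc was not near the level of control replicate 2 in deletion replicate 3.

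All 6 loci lie on the mm10 reference as the deposited table gives them. Kit (NM_021099) is on chromosome 5 from 75574991 to 75656721, Cpa3 (NM_007753) on chromosome 3 from 20215616 to 20242181, and Hdc (NM_008230) on chromosome 2 from 126593660 to 126618678. Tpsb2 (NM_010781) is on chromosome 17 from 25366333 to 25368092. Cma1 (NM_010780) and Mcpt4 (NM_010779) share chromosome 14, from 55941451 to 55944675 and from 56059744 to 56062310, with 115069 bases between them. The genes next to them in the table on the far side are the granzyme genes Gzmc and Gzmb of the same protease cluster, and control replicate 3 held 86 counts of Gzmb. None of the 6 shared exonic bases with another gene of GENCODE vM21. Of all 50-base windows of the transcript, 5.5% of Mcpt4 also occurred in another gene, mostly Cma2, and 5.4% of Cma1 in the gene model Gm48934; for the other 4 it was 0%.

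The protease genes and Hdc had profiles across libraries that were alike only in part, with Mcpt4 and Hdc departing from Cma1 and Cpa3. Among these genes, Tpsb2 has no RefSeq promoter entry (build GRCm38.p6). For the other 4, the 250 bases before the start sites are shown. Each runs 5′ to 3′ on the minus strand. Capitals mark GATAA or its reverse complement TTATC, a form of the core bound by GATA factors, of which GATA2 is needed by mast cells. Other forms of that core were not searched or marked.

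Cpa3, chr3:20242182-20242431: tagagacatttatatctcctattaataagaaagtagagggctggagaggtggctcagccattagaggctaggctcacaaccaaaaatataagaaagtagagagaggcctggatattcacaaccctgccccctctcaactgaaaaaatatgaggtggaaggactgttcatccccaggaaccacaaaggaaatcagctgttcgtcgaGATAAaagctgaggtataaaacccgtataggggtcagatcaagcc

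Mcpt4, chr14:56062311-56062560: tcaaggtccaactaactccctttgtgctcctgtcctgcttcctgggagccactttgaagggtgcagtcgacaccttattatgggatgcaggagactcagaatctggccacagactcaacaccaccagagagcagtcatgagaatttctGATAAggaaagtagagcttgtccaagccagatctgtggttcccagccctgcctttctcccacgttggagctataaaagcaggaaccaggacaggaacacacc

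Cma1, chr14:55944676-55944925: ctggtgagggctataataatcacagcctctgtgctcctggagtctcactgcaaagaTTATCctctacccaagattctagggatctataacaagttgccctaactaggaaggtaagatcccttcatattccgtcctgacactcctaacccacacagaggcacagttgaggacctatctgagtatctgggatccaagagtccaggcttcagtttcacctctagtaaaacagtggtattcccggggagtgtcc

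Hdc, chr2:126618679-126618928: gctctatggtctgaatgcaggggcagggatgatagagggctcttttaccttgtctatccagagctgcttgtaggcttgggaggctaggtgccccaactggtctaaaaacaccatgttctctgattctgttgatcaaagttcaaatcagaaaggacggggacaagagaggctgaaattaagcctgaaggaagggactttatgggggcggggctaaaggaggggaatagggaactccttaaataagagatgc

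Cpa3, Mcpt4 and Cma1 held 1 match to GATAA or TTATC each, with its left base at -45, -102 and -194 counted back from the start site. Hdc and Kit held 0 matches to this form. Of 32536 distinct mouse promoter windows of this length, 22.5% held at least 1 match on either strand. The E-box words CACATG (or CATGTG) and CACGTG, which the mast cell factor MITF can bind, had 0 matches in the windows of these 5 genes, against 12.3% and 6.0% of all windows. No motifs therefore overlapped. Of the 7 listed genes, 6 had a promoter entry by symbol; Ms4a2 held 3 GATAA matches. A match describes these letters and is not a measured binding site.

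Within a library the counts of Cma1 and Tpsb2 kept nearly the same proportion. The ratio of Tpsb2 to Cma1 counts was 0.756, 0.796 and 0.800 in controls 1 to 3 and 0.667, 0.750 and 0.698 in deletion scars 1 to 3, while each gene spanned at least 14.4-fold across libraries. In control replicate 3 and deletion replicates 1 and 2, Cma1 held 8 to 12 counts and Tpsb2 6 to 8, so all ratios to Cma1 there are imprecise. The ratio of Cpa3 to Cma1 ran from 0.500 in deletion replicate 2 to 1.13 in control replicate 1. The ratio of Mcpt4 to Cma1 was 0.911, 1.31 and 15.0 in controls and 1.08, 4.25 and 1.53 in deletion scars, so Mcpt4 departed from the other proteases in control replicate 3 and, less far, in deletion replicate 2. The ratio of Hdc to Cma1 ran from 0.674 in deletion replicate 3 to 4.60 in control replicate 3. The ratio of Kit to Cma1 ran from 2.09 in control replicate 1 to 98.6 in control replicate 3.

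**Figure D2:**
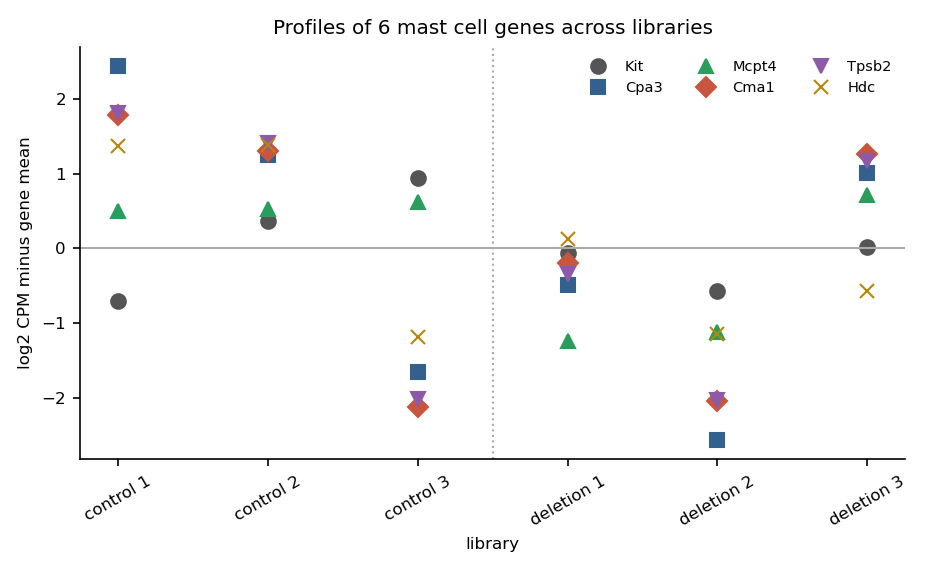
Log2 CPM of each of 6 genes minus that gene's mean over the 6 libraries, with a dotted line between control and deletion libraries. The points of Cpa3, Cma1 and Tpsb2 lie close together in every library, Mcpt4 leaves them in control 3, and Kit does not follow them.

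Per kilobase of the listed transcript, which allows genes to be compared, Mcpt4 was the highest member in the controls, at 2.41 ± 0.106 CPM per kilobase. It was followed by Kit at 2.11 ± 1.08, Cma1 at 1.37 ± 1.11, Hdc at 1.37 ± 0.910, Tpsb2 at 1.07 ± 0.844 and Cpa3 at 0.983 ± 0.934 CPM per kilobase (SD, n = 3). Neighbours in this order differed by less than the SD of at least 1 of the pair. In deletion scars Kit was at 1.46 ± 0.303, Mcpt4 at 1.39 ± 1.14, Cma1 at 0.781 ± 0.738, Tpsb2 at 0.543 ± 0.516, Hdc at 0.539 ± 0.237 and Cpa3 at 0.348 ± 0.342 CPM per kilobase.

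Set against other genes, 3 proteases were among the genes that varied most between libraries of the same group. The SD of log2 CPM within groups was 1.73 for Cpa3, 1.74 for Cma1 and 1.65 for Tpsb2, and only 149, 142 and 180 of the 14771 tested genes had a larger one. It was 1.11 for Hdc, 0.748 for Mcpt4 and 0.627 for Kit. The median was 0.295 over all tested genes and 0.423 over the 4244 genes whose mean level lay in the members' range of 0.869 to 9.17 CPM. Of those 4244, 97.7% had a smaller SD than Cpa3, 97.8% than Cma1, 97.3% than Tpsb2 and 70.7% than Kit. Cpa3, Cma1 and Tpsb2, with means of 0.958, 1.17 and 0.869 CPM, lie near the floor of that range. Counting error is larger there, and its share in their SD was not tested.

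**Figure D3:**
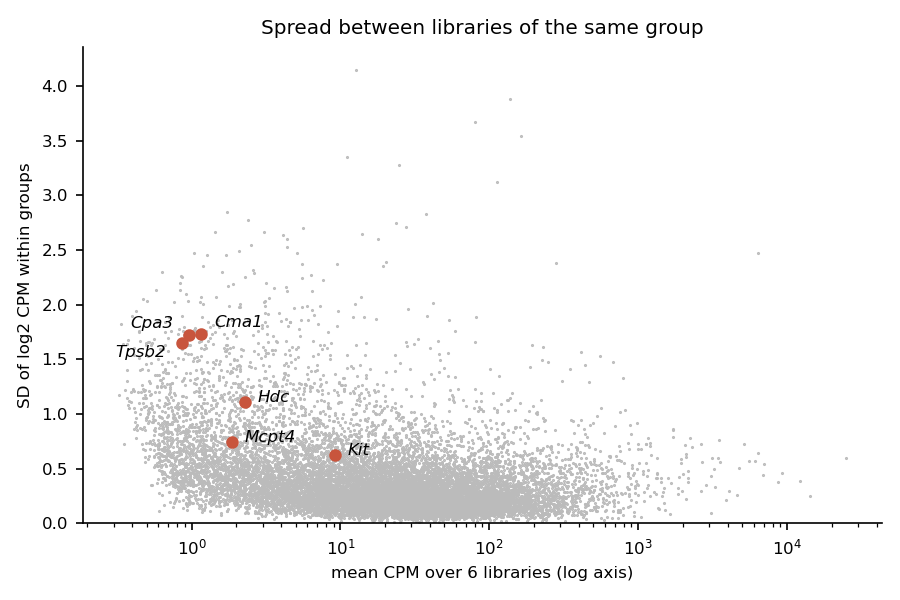
SD of log2 CPM within groups against mean CPM over the 6 libraries (log axis) for all 14771 tested genes in grey, with the 6 mast cell genes in red. Cpa3, Cma1 and Tpsb2 lie at 1.65 to 1.74, far above the median of 0.295, and Kit lies lowest of the 6.

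Compared between genotypes, all 6 members had negative log2 fold changes, and none passed. The median was -0.81, against -0.017 over the 14771 tested genes, of which 52.4% were negative. These genes mark 1 cell type and are not independent of each other. Several lists of other cells were as one-sided: log2 fold changes were negative in 6 of 6 pan-leukocyte genes (median -0.64), 7 of 7 macrophage genes (-0.53), 7 of 7 genes of T and natural killer cells (-1.0) and 8 of 8 fibroblast genes (-0.48). They were positive in 7 of 7 cardiomyocyte genes (median 0.88), and 0 genes of these lists passed. Signs were mixed in the neutrophil, B and plasma cell and endothelial lists. The count with an edgeR adjusted p below 0.05 was 0, as it was over all genes tested (0%), with a lowest value of 0.564. Unadjusted, 0 of 6 were below 0.05, against 1232 genes, or 8.34%, of all tested. The groups did not overlap in 0 members, against 17.5% of all tested genes, and the same was found with plain CPM. The summed TMM-scaled CPM of the 6 members, to which Kit gave the most, did not overlap. It was 19.3 to 22.3 in controls and 7.65 to 16.4 in deletion scars. This sum was not tested, and 8.6% of all tested single genes were separated downwards. Members called were also 0 with DESeq2, which called 0.352% of all genes, with a batch term in edgeR (0.00677%) and with DESeq2 and a batch term (13%).

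The largest estimates were in Cpa3 and Hdc. Cpa3 had means of 1.42 ± 1.35 against 0.501 ± 0.493 CPM (SD, n = 3 each) and a log2 fold change of -1.34 ± 1.09 (SE; edgeR adjusted p = 0.662). For Hdc, the means were 3.27 ± 2.17 against 1.29 ± 0.566 CPM and the log2 fold change -1.33 ± 0.69 (SE; edgeR adjusted p = 0.565). Control replicate 3 was low in both genes.

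The other 3 proteases had smaller estimates. Mcpt4 was at 2.37 ± 0.104 against 1.36 ± 1.12 CPM, which gave a log2 fold change of -0.76 ± 0.55 (SE; edgeR adjusted p = 0.636). Cma1 was at 1.49 ± 1.20 against 0.846 ± 0.799 CPM, with -0.73 ± 1.05 (SE; edgeR adjusted p = 0.797). Tpsb2 was at 1.15 ± 0.912 against 0.587 ± 0.557 CPM, with -0.86 ± 1.03 (SE; edgeR adjusted p = 0.758). For Cma1 and Tpsb2 the SE exceeded the size of the estimate. No permutation test was run on single genes, because 3 libraries a group allow no exact two-sided p under 0.1.

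For the 4 proteases the difference was larger between the replicate 1 libraries than between the means of replicates 2 and 3. In replicate 1 the deletion library differed from the control by -2.94 for Cpa3, -1.73 for Mcpt4, -1.98 for Cma1 and -2.16 for Tpsb2 on the log2 scale. The means of replicates 2 and 3 differed by -0.31, -0.50, -0.04 and -0.22 in the same order. In all 4 genes these means joined opposite differences, with deletion below control in replicate 2 and above it in replicate 3. Cpa3 was at 1.24 CPM in control 2 against 0.0874 CPM in deletion 2, and at 0.166 CPM in control 3 against 1.05 CPM in deletion 3. With replicates 2 and 3 alone, edgeR gave -0.51 for Mcpt4, against -0.76 with all libraries. The replicate 1 libraries also stood apart in Rn45s, the ribosomal RNA precursor, at 12180 CPM in the control and 22480 CPM in the deletion library, against 623 to 1004 CPM in the other 4 libraries. Its part in the difference was not tested. Hdc differed by -1.25 in the replicate 1 pair and by -1.44 in replicates 2 and 3. A single pair has no replicate check. With a batch term, the members' edgeR adjusted p ran from 0.276 for Hdc to 0.785 for Cma1, and none was called.

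**Figure D4:**
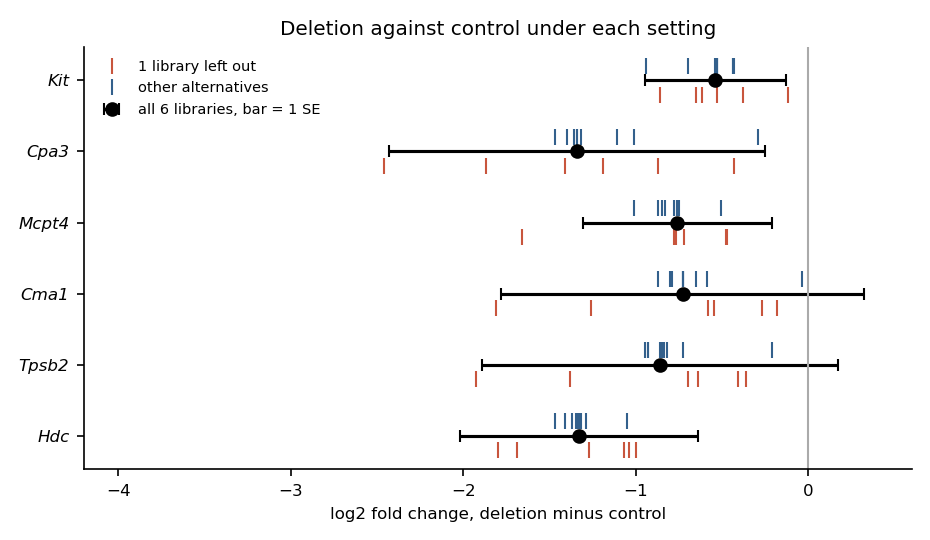
Log2 fold change of each gene, deletion minus control, with all 6 libraries (black, bar of 1 SE), with 1 library left out (red marks) and under the other alternatives (blue marks). All estimates are negative, and that of Cma1 reaches -0.04 with replicates 2 and 3 alone.

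For all 6 genes the estimates ranged wider when 1 library was left out than over the other alternatives. Without control replicate 3, Hdc was at -1.80 ± 0.42 (SE), with an unadjusted edgeR p of 0.00585 and an adjusted one of 0.807, Cpa3 at -1.87 and Kit at -0.12. That fit held no library with a female profile. Without deletion replicate 3, Mcpt4 was at -1.66 ± 0.37 (SE), with an unadjusted edgeR p of 0.00439 and an adjusted one of 0.425, and Cpa3 at -2.46. Without control replicate 1, Cpa3 was at -0.43, Cma1 at -0.18 and Tpsb2 at -0.36.

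The authors' deposited table gives log2 fold changes of -1.36 for Hdc, -0.95 for Cpa3, -0.88 for Mcpt4, -0.67 for Tpsb2, -0.50 for Cma1 and -0.43 for Kit. The NOISeqBIO score in the authors' deposited table, which runs from 0 to 1, was 0.9996 for Hdc, 0.9985 for Mcpt4 and 0.9348 for Cma1. It was above 0.95 in 5 of the 6 members and in 79.0% of all genes listed in the authors' deposited table.

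Other genes of mast cell biology were less specific to the cell. Of 10 listed receptor genes, 6 were in the table, all 6 had negative log2 fold changes, and 0 passed. The lowest p, 0.0210 unadjusted, was that of Il1rl1, the interleukin-33 receptor ST2, which T cells also carry. Il1rl1 was at 0.779, 0.695 and 1.66 CPM in controls 1 to 3 and 0.211, 0.481 and 0.242 CPM in deletion scars 1 to 3, a log2 fold change of -1.59 ± 0.53 (SE; edgeR adjusted p = 0.564). Every deletion library was below every control, which held for 8.6% of all tested genes in this direction. Il1rl1 held only 14, 38 and 100 counts in controls 1 to 3 and 4, 22 and 12 in deletion scars 1 to 3. The share of counting error in this separation was not tested. The IgE receptor gamma chain gene Fcer1g, shared by macrophages, was at 35.5 ± 13.8 against 27.5 ± 12.5 CPM, and the cytokine receptor genes Csf2rb2 and Csf2rb at 34.6 ± 14.6 against 19.1 ± 8.44 and 30.8 ± 23.6 against 16.7 ± 8.76 CPM. The interleukin-3 receptor gene Il3ra was at 5.10 ± 1.07 against 3.97 ± 0.386 CPM, and the adenosine receptor gene Adora3 at 0.607 ± 0.378 against 0.453 ± 0.306 CPM. The receptor genes Fcer1a, Mrgprb1, Mrgprb2 and Cd200r3 have no row in the table.

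Among 11 further protease and granule matrix genes, 4 were in the table and 0 passed. Serglycin (Srgn), the proteoglycan core that binds granule proteases in many leukocytes, was at 45.8 ± 16.0 against 39.8 ± 3.98 CPM. Ndst2, which sulphates heparin chains, was at 14.4 ± 1.93 against 11.0 ± 2.45 CPM. Ctsc, which activates chymases, was at 106 ± 31.2 against 79.0 ± 29.4 CPM, and Gzmb at 1.05 ± 0.349 against 0.901 ± 0.467 CPM. The groups overlapped in all 4.

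All 10 signalling genes below KIT and the IgE receptor had negative log2 fold changes, with a median of -0.47, and 0 passed an adjusted p of 0.05. The adaptor gene Gab2 was at 185 ± 12.0 against 146 ± 36.7 CPM and the kinase gene Syk at 68.0 ± 22.6 against 62.0 ± 9.40 CPM. Lcp2, an adaptor gene that T cells and platelets use too, was chosen after its values were seen as the 1 gene with an unadjusted p below 0.05, at 22.4 ± 9.10 against 12.4 ± 3.79 CPM. Gab2 and Lcp2 were lower in every deletion library, as were 8.6% of all tested genes, and Gab2 overlapped with plain CPM. Of 8 transcription factor genes, 7 were in the table, 5 with a positive log2 fold change. Gata2 was at 9.68, 6.98 and 4.57 CPM in controls 1 to 3 and 15.4, 9.18 and 7.73 CPM in deletion scars 1 to 3, and is also expressed by endothelium. Mitf, a factor of mast cells and melanocytes that heart muscle also expresses, was higher in every deletion library, at 46.1 ± 1.88 against 60.9 ± 10.2 CPM, a log2 fold change of 0.40 ± 0.15 (SE; edgeR adjusted p = 0.564). Such separation upwards was found in 8.87% of all tested genes. Runx1 and Spi1, factors of many blood lineages, were lower in every deletion library, at 47.8 ± 8.62 against 24.4 ± 15.1 CPM and 16.2 ± 6.66 against 9.06 ± 2.68 CPM. Separation downwards was found in 8.6% of all tested genes, and the edgeR adjusted p was 0.5655 for Runx1 and 0.564 for Spi1. Tal1 was at 5.60 ± 1.32 against 6.55 ± 1.59 CPM, Stat5a at 17.0 ± 4.34 against 19.9 ± 1.90 CPM and Stat5b at 46.5 ± 4.55 against 53.7 ± 9.09 CPM.

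The ligand of KIT, stem cell factor (Kitl), had the sign opposite to Kit. Kitl was at 45.5, 42.0 and 27.5 CPM in controls 1 to 3 and 95.2, 53.9 and 44.8 CPM in deletion scars 1 to 3, a log2 fold change of 0.75 ± 0.33 (SE; edgeR adjusted p = 0.564). Deletion replicate 1 was the highest, and deletion replicate 3 lay just below control replicate 1, so the groups overlapped. Of the 12 listed genes that grow, attract or activate mast cells, 8 were in the table, 6 with a negative log2 fold change and 0 passing. The chemokine gene Cxcl12 was at 82.8 ± 16.1 against 86.0 ± 6.67 CPM. Kitl and Cxcl12 were the 2 measured genes of this list with a positive log2 fold change.

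In histamine and lipid mediator handling, 7 of 9 listed genes were in the table, 4 negative, and 0 passed. The leukotriene pathway gene Alox5ap was at 32.6 ± 9.81 against 22.9 ± 9.05 CPM. Hpgds, a prostaglandin D synthase also made by macrophages, was at 20.4, 22.3 and 19.3 CPM in controls 1 to 3 and 9.71, 17.5 and 13.4 CPM in deletion scars 1 to 3. Every deletion library was below every control, with a log2 fold change of -0.61 ± 0.23 (SE; edgeR adjusted p = 0.564). The groups also did not overlap in Ptgs1 and Slc18a2, both chosen after their values were seen. Of all tested genes, 8.6% were separated downwards and 8.87% upwards. Ptgs1, a prostaglandin synthase gene, was lower in deletion scars, at 16.3 ± 5.71 against 8.96 ± 0.929 CPM, a log2 fold change of -0.85 ± 0.29 (SE; edgeR adjusted p = 0.564). Slc18a2, which loads histamine into granules, was higher, at 2.13 ± 0.401 against 3.12 ± 0.590 CPM, a log2 fold change of 0.52 ± 0.29 (SE; edgeR adjusted p = 0.566), and overlapped with plain CPM. Of 8 receptors and substrates of mast cell products, 7 were in the table, 6 negative and 0 passing. The angiotensin-converting enzyme gene Ace was at 234 ± 96.3 against 194 ± 50.6 CPM and the endothelin gene Edn1 at 27.1 ± 9.14 against 18.3 ± 5.80 CPM.

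Markers of other cells moved between libraries too, and not in the order of the proteases. The summed level of the 4 proteases was 9.52, 6.80 and 2.95 CPM in controls 1 to 3 and 2.11, 1.14 and 6.64 CPM in deletion scars 1 to 3. The 6 of 6 pan-leukocyte genes summed to 347, 402 and 949 CPM in controls 1 to 3 and to 174, 478 and 423 CPM in deletion scars 1 to 3. Control replicate 3 had the highest pan-leukocyte sum and, with deletion replicate 2, the lowest Cma1. The 7 of 7 genes of T and natural killer cells ran from 12.4 to 105 CPM in controls and 7.76 to 32.0 CPM in deletion scars, and the 5 of 5 genes of B and plasma cells from 19.7 to 199 and from 11.9 to 86.9 CPM, with control replicate 3 the highest of all in both. The 7 of 7 macrophage genes ran from 484 to 835 CPM and from 301 to 541 CPM, and 3 of 6 neutrophil genes from 7.35 to 15.4 and from 4.70 to 12.5 CPM.

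Muscle, fibroblast and endothelial markers gave other orders. The 7 of 7 cardiomyocyte genes summed to 31720 to 56280 CPM in controls and 52860 to 112300 CPM in deletion scars, and the 8 of 8 fibroblast genes to 13070 to 15220 and 5551 to 13820 CPM. Deletion replicate 1 was the highest in the first and the lowest in the second. The 5 of 5 endothelial genes ran from 564 to 682 and from 584 to 1127 CPM. The part of these cell types in the mast cell values was not tested.

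**Figure D5:**
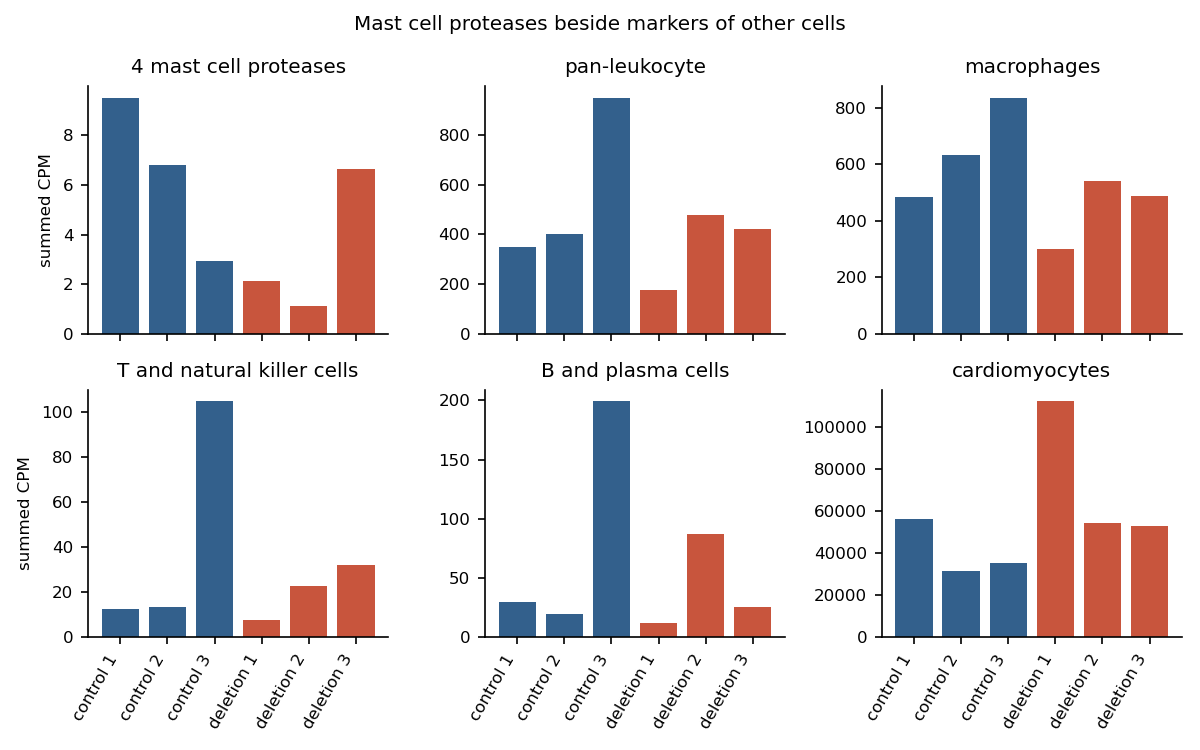
Summed CPM of the 4 mast cell proteases and of marker genes of 5 other cell types in each library, blue for controls and red for deletion scars, each panel with its own axis from 0. The proteases are highest in controls 1 and 2 and deletion 3, whereas leukocyte, T and B cell markers are highest in control 3 and cardiomyocyte markers in deletion 1.

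Other cells that can carry Kit or granule genes were looked at by their defining markers. Of 5 basophil genes, including Mcpt8 and Prss34, 0 were in the table. Of 5 eosinophil genes 2 were in the table, and of 5 melanocyte genes 3, without Tyr and Tyrp1. Dct, a melanocyte enzyme gene, was at 2.34, 0.293 and 1.19 CPM in controls 1 to 3 and 12.0, 3.41 and 3.34 CPM in deletion scars 1 to 3, an order unlike that of Kit. Pmel was at 2.13 ± 0.452 against 2.09 ± 0.274 CPM. Of the 3 melanocyte genes in the table, Dct alone had a positive log2 fold change and 2 had a negative one. Of 5 progenitor genes 3 were in the table, with Cd34, which endothelium also expresses, at 345 ± 64.6 against 284 ± 29.9 CPM and Meis1 at 37.9 ± 9.79 against 35.6 ± 2.66 CPM. Their part in the level of Kit was not tested.

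Genes most like the members in profile were ranked by Pearson r over the 6 libraries with the mean of the members' standardised log2 CPM, among 13269 genes with a mean of at least 1 CPM. The 8 highest were Brpf3 (r = 0.988), Ick (0.983), Axin1 (0.976), Nrf1 (0.974), Stra6 (0.972), Cldn34c1 (0.965), Zfp821 (0.960) and Mmp9 (0.958), and 54 genes reached 0.9. With 6 points from libraries of 2 groups and so many genes, such values are a description only. Of the members, Cpa3 had 0.939, Tpsb2 0.923, Cma1 0.906, Hdc 0.796, Mcpt4 0.740 and Kit 0.07 with the profile that they formed together. Most of the 8 changed little in size: Axin1 ran from 33.0 to 39.0 CPM. Mmp9, a gelatinase gene, was at 6.85, 5.70 and 3.51 CPM in controls 1 to 3 and 2.27, 0.918 and 5.03 CPM in deletion scars 1 to 3, the widest span of the 8.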

How the data were processed

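Raw counts per gene of 6 libraries were taken from the deposited table, with ScriptSeq v2 libraries per the labels' protocols. Per the submitters' processing notes the tools were Trim Galore, STAR and deepTools and the build mm10, with no role or version; what counted reads, strand use and read length are not stated. The authors' normalized signal, called TMM per the file headers, was not tested; the deposited log2 fold change and the deposited NOISeqBIO score are printed as the authors' values. No listed gene has a mean count under 7, so low genes may have been removed before deposition, which could remove mast cell genes such as Ms4a2.

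Counts were tested in R 4.3.3 with edgeR 4.0.16 (filterByExpr, TMM, robust quasi-likelihood F test, genotype as the only term, prior count 2, 4 residual degrees of freedom) and adjusted by Benjamini-Hochberg over all 14771 genes tested, with a threshold of 0.05. The SE is the log2 fold change over the square root of F. DESeq2 1.42.0 and other fits were alternatives. Only the main edgeR fit and DESeq2 with genotype alone were tested on simulated data, whose spread was fixed and not taken from these libraries. The other fits were not tested in that way. Members and lists were chosen with earlier results of these data known. The naming rule took all members and the 8 genes of most similar profile, and allowed the 2 highest genes of each list and all measured mast cell proteases, receptors and transcription factors; marker lists of other cells are mostly given as sums. Lcp2, Ptgs1, Slc18a2, Rn45s and Xist were named after their values were seen. Replicate numbers were not taken as pairs in the main fit. Deviations of same-numbered libraries correlated at 0.48, 0.01 and 0.18, and those of differently numbered libraries at -0.4 to 0.39. With 3 libraries a group, these values cannot show whether samples were paired.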

Additional observations from a re-analysis of the deposited data

How the results depend on the processing

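Over 15 alternatives, all 90 estimates for the 6 genes were negative and 0 had an adjusted p below 0.05 (5 had an unadjusted p below 0.05). With 1 library left out, log2 fold changes ran from -0.86 to -0.12 for Kit, -2.46 to -0.43 for Cpa3, -1.66 to -0.47 for Mcpt4, -1.81 to -0.18 for Cma1, -1.93 to -0.36 for Tpsb2 and -1.80 to -1.0 for Hdc, and edgeR called 0 genes each time. Over the other alternatives the adjusted p ran from 0.170 for Hdc to 0.992 for Cma1. The count of all genes called, 0 with edgeR, was 52 (0.352%) with DESeq2, 1 (0.00677%) with a batch term in edgeR and 1920 (13%) with DESeq2 and a batch term, a fit added after seeing the data; 0 members were called in each, and DESeq2 with the batch term gave no adjusted p for Tpsb2. The cause was not tested. With the replicate number as a block, edgeR called 0 genes, the 6 estimates ran from -1.36 for Cpa3 to -0.44 for Kit, and the lowest adjusted p of a member was 0.355. Plain library sizes moved the median of all genes to -0.153 on the log2 scale and the members' estimates to between -1.47 and -0.70. Depth limits Cpa3, Cma1 and Tpsb2, with 4 to 12 counts in control replicate 3 and deletion replicates 1 and 2.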
